A study of Mus musculus with 16 samples.

Results

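Hippocampal RNA of 16 libraries was compared by p16 genotype, with 8 libraries from p16 knockout mice set against 8 from mice with p16 intact. The effect was the mean of 2 within-transgene differences, PS19_p16KO minus PS19 and p16KO minus wildtype, so that the transgene genotype was held constant in each. All 16 libraries of the series entered, and genes were sought that followed p16 genotype alike with and without the transgene. The animals were female and 8 months old. The PS19_p16KO group (4 libraries) carried the PS19 tau transgene and the p16 knockout, the p16KO group (4 libraries) the knockout without the transgene, the PS19 group (4 libraries) the transgene with p16 intact, and the wildtype group (4 libraries) neither. In PS19 mice the mouse prion protein promoter drives human tau that carries a disease mutation, so expression of the transgene is not limited to the cells that express Mapt. The sources used here give neither the knockout allele nor the genetic background or breeding scheme. The labels do not state that each of the 4 samples of a group was a different mouse. The spread behind each p-value is therefore that between samples, which may be technical.

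The p16 protein (p16INK4a) is made from the Cdkn2a locus. It binds the kinases Cdk4 and Cdk6 and blocks their activity with D cyclins, which keeps the retinoblastoma protein active and E2F target genes off. A second product of the same locus, p19ARF, starts at an upstream first exon and stabilises p53. p16 accumulates in senescent cells, which leave the cell cycle for good and secrete inflammatory factors, and in the adult hippocampus most neurons are long out of the cycle while some glial, vascular and progenitor cells still divide.

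The libraries held 18485552 to 22311322 gene counts each, and 16372 genes were tested. The unit of all levels below is CPM, the count of a gene relative to the TMM-scaled size of its library, which is not divided by gene length. The tissue label was checked first, and all 18 excitatory neuron genes, all 12 dentate granule cell genes and all 16 pyramidal subfield genes that were looked for were detected well enough to be tested. Prnp, the prion protein gene, stood at 1872 ± 60.8 CPM in the PS19_p16KO group and 1066 ± 7.27 CPM in the p16KO group, against 1769 ± 224 CPM in PS19 mice and 1023 ± 36.1 CPM in wildtype mice (SD, n = 4 each). It was therefore higher in both transgenic groups than in both others. Choroid plexus genes differed strongly between libraries. Their summed level was 9319 CPM in PS19_p16KO library 3, 5962 CPM in p16KO library 4 and 1714 CPM in wildtype library 1, and at most 482 CPM in the other 13. Without these 3 libraries 20 of the 37 genes called below kept their call, 17 lost it and 0 changed sign, and a loss is stated where a gene is described.

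Cdkn2a, the targeted gene (chromosome 4, 89274471 to 89294653, GRCm38), was lower in the p16 knockout libraries but close to the detection limit in all. The 4 PS19_p16KO libraries held 1, 1, 0 and 0 counts and the 4 p16KO libraries 1, 1, 1 and 0 counts. The 4 PS19 libraries held 8, 4, 1 and 5 counts and the 4 wildtype libraries 1, 1, 4 and 2 counts. No knockout library exceeded 1 count, while 3 of the 8 intact libraries also had only 1, so the genotypes overlapped. Means were 0.0252 ± 0.0292 CPM in PS19_p16KO and 0.0369 ± 0.0248 CPM in p16KO, against 0.237 ± 0.158 CPM in PS19 and 0.104 ± 0.0766 CPM in wildtype (SD, n = 4 each). The knockout mean minus the intact mean was -0.139 CPM (exact two-sided permutation test within transgene arms, p = 0.00327, with 4900 assignments and a smallest possible p of 0.000408). With 5 counts in all over the knockout libraries and 26 over the intact ones, the gene was too low for the test over all genes. The counts cover both products of the locus and do not tell them apart.

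The promoters of Cdkn2a are shown because the knockout is defined by this locus and because E2F, the factor downstream of p16, binds a short word that can be looked for. The windows run from 250 bases before to 50 bases after each transcript start in RefSeq for GRCm38.p6. The E2F words searched were TTTCCCGC, TTTCGCGC, TTTGCCGC and TTTGGCGC on both strands, and 744 of 32851 windows (2.26%) held at least 1. Capitals mark such a word. The upstream start (chr4:89294570-89294869, minus strand) held TTTCCCGC at position -99 from the start, and the downstream start (chr4:89282143-89282442, minus strand) held none.
Cdkn2a upstream start: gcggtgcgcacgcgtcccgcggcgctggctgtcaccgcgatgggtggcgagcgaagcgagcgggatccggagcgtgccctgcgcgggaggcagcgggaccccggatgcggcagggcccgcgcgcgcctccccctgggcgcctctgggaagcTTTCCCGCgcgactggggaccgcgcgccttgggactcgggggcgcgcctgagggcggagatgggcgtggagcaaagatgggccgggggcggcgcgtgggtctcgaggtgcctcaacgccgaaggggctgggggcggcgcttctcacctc
Cdkn2a downstream start: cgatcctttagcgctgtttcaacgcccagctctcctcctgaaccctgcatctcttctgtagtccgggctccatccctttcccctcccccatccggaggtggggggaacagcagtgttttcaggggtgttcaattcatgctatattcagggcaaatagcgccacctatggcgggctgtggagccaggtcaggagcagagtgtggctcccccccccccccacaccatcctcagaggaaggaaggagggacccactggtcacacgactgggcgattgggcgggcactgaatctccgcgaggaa

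The lists of the cell cycle pathway around p16 held no call. Over all genes tested the share called was 0.226%, so 0 calls in lists this short say little about the pathway. Of 7 inhibitors of the INK4 and CIP/KIP families 6 were tested and 0 called, with a median log2 fold change of -0.08. Of 19 G1 kinases, cyclins, Rb family members and E2F factors all were tested and 0 called, with a median of 0.03, and of 23 proliferation genes and E2F targets 18 were tested and 0 called, with a median of -0.02. The median over all 16372 genes tested was -0.00. Cdkn2b, which encodes the neighbouring inhibitor p15, ran from 0.359 to 1.11 CPM (median 0.62) in the 8 knockout libraries and from 0.593 to 1.2 CPM (median 0.802) in the 8 intact ones. Its log2 fold change was -0.30 ± 0.24 (adjusted p = 0.801), so neither a rise nor a fall was detectable. Ccnd1, cyclin D1, the partner of Cdk4 and Cdk6, ran from 37.2 to 57.6 CPM (median 50.2) in the knockout libraries and from 29.8 to 49.9 CPM (median 33.8) in the intact ones. The genotypes overlapped, and its log2 fold change of 0.43 ± 0.12 missed the threshold (edgeR adjusted p = 0.226). Ccne1, cyclin E1, was at 0.28 ± 0.10 (adjusted p = 0.405), and Mcm6, a subunit of the replicative helicase, at 0.20 ± 0.08 (adjusted p = 0.477). Cdkn1c, the inhibitor p57, had 38.3 CPM in PS19_p16KO library 3 and 22.3 CPM in p16KO library 4, against 3.35 to 8.66 CPM in the other 6 knockout libraries and 2.55 to 8.24 CPM in the intact ones. These 2 libraries are the ones highest in choroid plexus RNA, and its log2 fold change was 1.25 ± 0.58 with them (adjusted p = 0.632) and 0.18 ± 0.21 without the 3 libraries highest in that RNA (adjusted p = 0.907). Of 18 genes of the p53 pathway, on which p19ARF acts, 0 were called, with a median of -0.05.

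Across all genes the average p16 effect called 37 genes, 0.226% of those tested, of which 16 rose (0.0977%) and 21 fell (0.128%) in the p16 knockout (edgeR quasi-likelihood test, Benjamini-Hochberg adjusted p under 0.05). At an unadjusted p under 0.05 there were 1303 genes, 7.96% of those tested. All 37 called genes had the same sign in both transgene arms, which choosing them by the mean of the arms favours, so it is a description only (over all genes it was 54.9%). Of the 37, 15 met the stricter description used here for genes that follow p16 genotype alike, 0.0916% of genes tested. They were called, the CPM values of their libraries did not overlap within either arm, and the smaller of the 2 arm differences was at least 50% of the larger. In 1 of them, Hist1h2al, the lowest knockout libraries of the PS19 arm and the highest PS19 library each had 1 count and were separated by library size alone. Of these 15, 7 were higher (0.0428%) and 8 lower (0.0489%) in the knockout. Nonoverlap in both arms in the same direction, whatever the test gave, held for 24 genes (0.147%), 11 higher (0.0672%) and 13 lower (0.0794%), while 17 genes (0.104%) had nonoverlapping libraries in opposite directions. All 8 knockout libraries lay on 1 side of all 8 intact ones for 13 genes (0.0794%), of which 10 were called. Within single arms the libraries did not overlap for 482 genes (2.94%) without the transgene and for 670 genes (4.09%) with it. Leaving out 1 library at a time gave between 10 calls (without p16KO library 3) and 119 calls (without PS19 library 3), and the 119 included all 37. At the threshold, Shisa4, Ehd3 and Myo9b were called with an adjusted p of 0.0487, and Serpinf2 (0.0518), Crb1 (0.057) and Hspa8 (0.0573) were not.

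**Figure D1:**
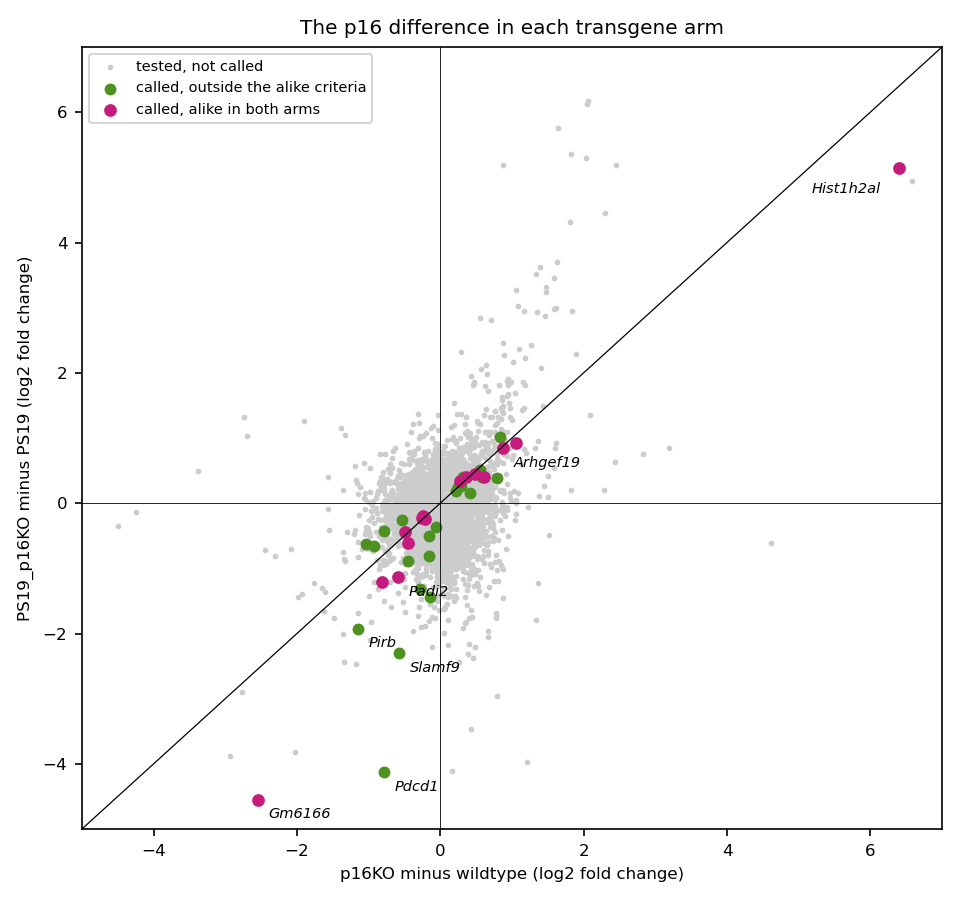
Log2 fold change of p16KO minus wildtype (x axis) against PS19_p16KO minus PS19 (y axis) for the 16372 tested genes, with the 37 called genes in colour and the line marking equal differences. All called genes lie in the upper right or lower left part, and Slamf9 and Pdcd1 lie off the line, at -2.30 and -4.13 in the PS19 arm and -0.57 and -0.78 without the transgene, while Arhgef19 lies on it.

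Nearest to the targeted locus, 3 genes of chromosome 4 between 88718292 and 94477180 were called, and all 3 were alike in both arms. They were 3 of the 9 genes tested in that span, against 0.226% of all genes. The ends of this span, and of those described below, are the outermost called genes, which raises the share called inside. Klhl9, an adaptor of a Cul3 ubiquitin ligase, had 97.7, 100, 102 and 105 CPM in PS19_p16KO and 107, 109, 104 and 95.1 CPM in p16KO, against 119, 123, 117 and 118 CPM in PS19 and 118, 126, 118 and 118 CPM in wildtype. Every knockout library lay below every intact one. It fell by 0.22 on the log2 scale (SE 0.03, edgeR adjusted p = 0.00687), with -0.24 ± 0.05 in the PS19 arm and -0.21 ± 0.05 without the transgene. Its position overlaps Gm26566 on the other strand, which was at 0.00 ± 0.16. Tusc1, tumor suppressor candidate 1, had 11.4, 10.6, 12.1 and 9.45 CPM in PS19_p16KO and 10.3, 12.8, 11.5 and 10.6 CPM in p16KO, against 8.24, 6.74, 8.20 and 8.58 CPM in PS19 and 8.39, 6.44, 8.80 and 8.70 CPM in wildtype. All 8 knockout libraries were above all 8 intact ones, and it rose by 0.47 ± 0.09 (adjusted p = 0.0294). Gm12655, a noncoding transcript, ran from 0.371 to 0.900 CPM in the knockout libraries and from 0.971 to 1.74 CPM in the intact ones, a difference of -1.01 ± 0.19 (adjusted p = 0.0317). The 3 genes thus did not all move in 1 direction. Klhl9 was called in all 16 fits that left out 1 library each, Tusc1 in 9 and Gm12655 in 4. Tusc1 (adjusted p = 0.0516) and Gm12655 (adjusted p = 0.0825) were not called without the 3 libraries highest in choroid plexus RNA.

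Mtap, the methylthioadenosine phosphorylase gene next to Cdkn2a, ran from 6.97 to 9.96 CPM (median 7.76) in the knockout libraries and from 8.88 to 11.8 CPM (median 10.4) in the intact ones. The groups did not overlap without the transgene and overlapped in the PS19 arm, and its difference of -0.37 ± 0.09 was not called (adjusted p = 0.139). Without the 3 libraries highest in choroid plexus RNA it was called, at -0.49 ± 0.09 (adjusted p = 0.0178). Mtap overlaps the antisense gene Gm12607, and the sources used here do not say whether counting used strand. Hacd4, a fatty acid elongation enzyme on the same side, was at -0.38 ± 0.13 (adjusted p = 0.389). Distances were taken between the lower annotated coordinates of genes, whatever the strand. Within 5 Mb of that of Cdkn2a 2 of 21 tested genes were called (9.52%). Within 10 Mb it was 3 of 55 (5.45%) and within 20 Mb 3 of 135 (2.22%), against 0.226% of all genes. On the rest of chromosome 4 it was 5 of 865 (0.578%). A difference of p16 genotype and a difference of linked chromosome 4 sequence cannot be told apart with these groups. Whether the genetic background of the groups differed on other chromosomes was not tested.

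The other 5 called genes of chromosome 4 lay together farther along, between 140906344 and 141257564, where 11 genes were tested. Arhgef19, a guanine nucleotide exchange factor, had the smallest p of all genes. It had 18.2, 21.3, 20.9 and 22.7 CPM in PS19_p16KO and 22.5, 22.8, 23.6 and 19.2 CPM in p16KO, against 11, 13, 10.1 and 11.9 CPM in PS19 and 17, 8.91, 11.4 and 10.8 CPM in wildtype. No knockout library reached down to the highest intact one, wildtype library 1. The fold was 1.82, with a log2 fold change of 0.86 ± 0.10 (adjusted p = 0.00189), 0.85 ± 0.14 in the PS19 arm and 0.88 ± 0.14 without the transgene. The difference between the arms was -0.03, with a 95% interval from -0.46 to 0.40. Padi2, a deiminase that turns arginine into citrulline in proteins such as myelin basic protein, went the other way. It had 65.0, 45.6, 53.5 and 46.1 CPM in PS19_p16KO and 48.3, 43.1, 46.3 and 60.9 CPM in p16KO, against 132, 134, 89.4 and 106 CPM in PS19 and 67.9, 76.3, 85.8 and 69.3 CPM in wildtype. All knockout libraries lay below all intact ones, and the PS19 libraries were the highest. It fell by 0.86 ± 0.11 on the log2 scale (adjusted p = 0.00687), by 1.13 in the PS19 arm and by 0.59 without the transgene. The difference between these arms was -0.54 (95% interval -1.0 to -0.08, unadjusted p = 0.0244, adjusted p = 0.744), the only one of the 15 alike genes with an unadjusted p under 0.05. Padi2 overlaps the annotated genes Gm26226 and Gm13031.

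The promoter windows of Arhgef19 (chr4:141244838-141245137, plus strand) and Padi2 (chr4:140906110-140906409, plus strand) are shown because these genes have the largest opposite changes in that span. Neither held an E2F word. The Arhgef19 window lies downstream of the annotated gene start at 141239499, and no window at that start was searched.
Arhgef19: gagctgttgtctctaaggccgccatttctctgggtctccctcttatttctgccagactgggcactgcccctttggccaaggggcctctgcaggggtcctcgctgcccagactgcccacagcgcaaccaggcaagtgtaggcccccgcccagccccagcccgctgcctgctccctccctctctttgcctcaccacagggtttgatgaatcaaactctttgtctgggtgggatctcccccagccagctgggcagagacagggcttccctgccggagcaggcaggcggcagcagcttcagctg
Padi2: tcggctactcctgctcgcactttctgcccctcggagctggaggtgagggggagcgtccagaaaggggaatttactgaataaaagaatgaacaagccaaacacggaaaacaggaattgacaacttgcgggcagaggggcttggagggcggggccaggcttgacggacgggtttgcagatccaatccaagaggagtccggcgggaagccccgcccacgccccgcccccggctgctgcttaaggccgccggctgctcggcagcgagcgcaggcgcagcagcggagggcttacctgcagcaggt

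Rsg1, a small GTPase needed for the growth of cilia, had 2.29, 1.91, 1.70 and 2.68 CPM in PS19_p16KO and 2.79, 2.41, 3.23 and 2.92 CPM in p16KO, against 0.862, 1.38, 1.13 and 1.14 CPM in PS19 and 1.82, 0.991, 1.37 and 1.29 CPM in wildtype. Within each arm the groups did not overlap, and across arms only PS19_p16KO library 3 was below the highest intact library. It rose 1.98-fold (log2 0.99 ± 0.16, adjusted p = 0.0101). Crocc, which encodes rootletin, the main protein of the ciliary rootlet, ran from 49.8 to 58.9 CPM (median 57.7) in the knockout libraries and from 36.1 to 53.8 CPM (median 42.4) in the intact ones, a rise of 0.38 ± 0.07 (adjusted p = 0.0306). Mfap2, a component of elastic microfibrils, ran from 2.71 to 4.37 CPM and from 1.02 to 3.02 CPM, knockout and intact, a rise of 0.93 ± 0.19 (adjusted p = 0.0486). Its libraries overlapped. Of 5 called genes in this stretch 4 rose and 1 fell, 4 were alike in both arms, and the median log2 fold change of the 11 genes tested was 0.08. Arhgef19, Padi2 and Rsg1 were called in all 16 leave-one-out fits, Crocc in 9 and Mfap2 in 2. Wildtype library 1 was nearer the knockout median than the intact one for Arhgef19, Crocc, Mfap2 and Rsg1.

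**Figure D2:**
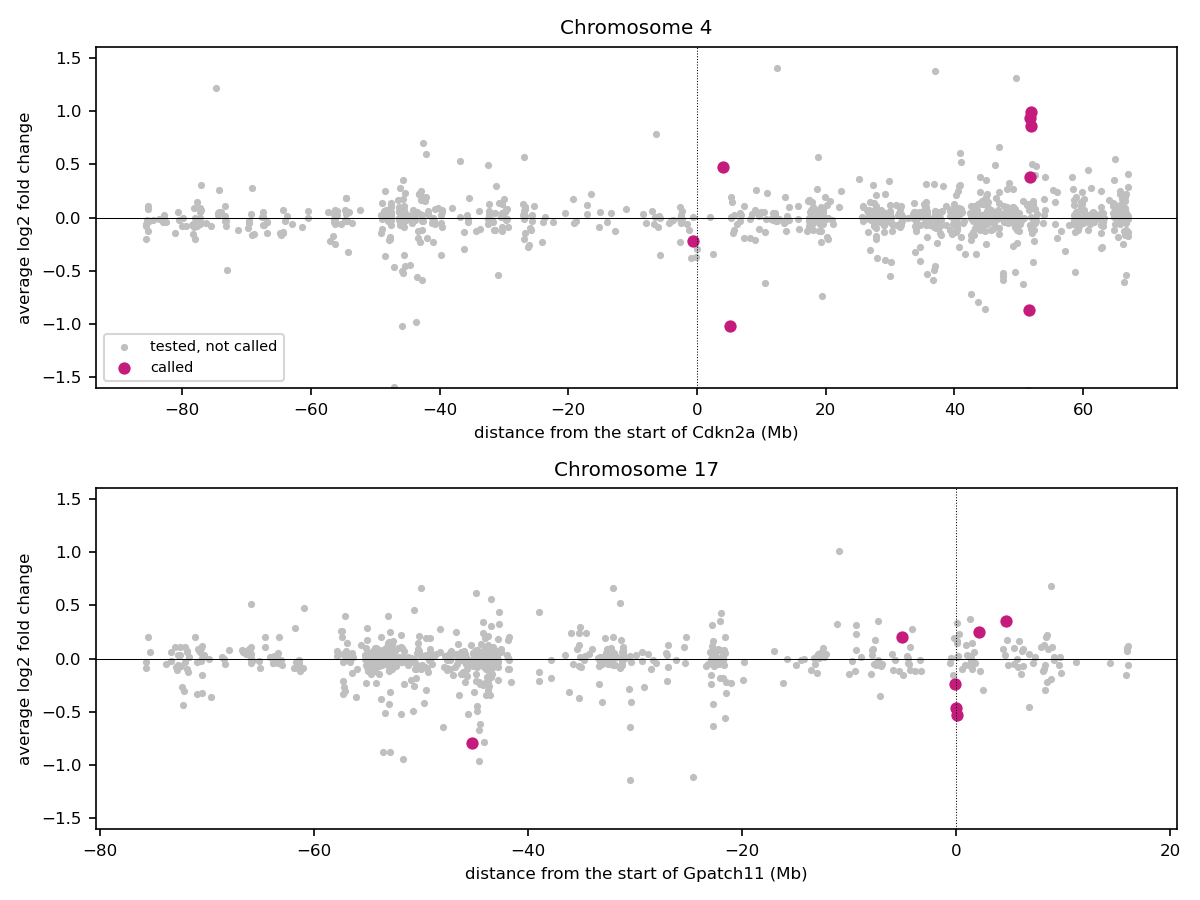
Average log2 fold change against distance in Mb from the start of Cdkn2a on chromosome 4 (upper panel) and from the start of Gpatch11 on chromosome 17 (lower panel), 1 point per tested gene, with called genes coloured. Start here is the lower annotated coordinate of a gene, whatever the strand. The axis ends at ±1.6, beyond which lie 4 genes of chromosome 4 and 1 of chromosome 17, none called, and the called genes form 2 groups on chromosome 4 and 1 on chromosome 17, each with rises and falls.

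Chromosome 17 held 7 called genes of 765 tested (0.915%), and 6 of them had their lower annotated coordinate between 73804134 and 83501918. In that span, which ends at 83517330, 6 of 45 tested genes were called, 3 higher and 3 lower. Gpatch11, a G-patch protein, had 31.6, 27.1, 27.7 and 33.3 CPM in PS19_p16KO and 36.6, 26.7, 29.7 and 29.9 CPM in p16KO, against 40, 43.5, 37.9 and 40.2 CPM in PS19 and 47.2, 45.8, 41.0 and 39.6 CPM in wildtype. The 8 knockout libraries were all below the 8 intact ones, and it fell by 0.47 ± 0.06 (adjusted p = 0.00365). Heatr5b, a HEAT-repeat protein of vesicle traffic, starts 203 bases away on the other strand. It ran from 49.0 to 61.9 CPM (median 58.3) in the knockout libraries and from 62.1 to 75.0 CPM (median 66.5) in the intact ones, without overlap, and fell by 0.24 ± 0.05 (adjusted p = 0.0457). Both genes of this head-to-head pair were thus lower in the knockout in each arm. Eif2ak2, the kinase PKR that is switched on by double-stranded RNA, ran from 4.82 to 8.52 CPM (median 6.22) in the knockout libraries and from 7.59 to 11.6 CPM (median 9.44) in the intact ones. It fell by 0.53 ± 0.10 (adjusted p = 0.0306), with PS19_p16KO library 4 the only knockout library inside the intact range. It overlaps the annotated genes n-R5s29 and Gm26637.

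Cox7a2l, an assembly factor of respiratory supercomplexes, rose. It had 94.1, 91.9, 94.3 and 74.2 CPM in PS19_p16KO and 82.5, 90.9, 86.3 and 80.9 CPM in p16KO, against 69.1, 76.0, 59.7 and 64.1 CPM in PS19 and 69.4, 71.4, 67.8 and 65.2 CPM in wildtype. Only PS19_p16KO library 4 overlapped the intact libraries, and the log2 fold change was 0.36 ± 0.05 (adjusted p = 0.00687). Tmem178, a membrane protein of the endoplasmic reticulum, ran from 65.4 to 83.2 CPM (median 75.8) in the knockout libraries and from 56.7 to 67.9 CPM (median 63.5) in the intact ones, a rise of 0.25 ± 0.05 (adjusted p = 0.0375). Ehd3, an ATPase of endosome recycling, ran from 175 to 218 CPM (median 205) and from 161 to 186 CPM (median 178), knockout and intact, a rise of 0.20 ± 0.04 (adjusted p = 0.0487). PS19_p16KO library 4 was again the only knockout library inside the intact range for both. Gpatch11 and Cox7a2l were called in all 16 leave-one-out fits, Eif2ak2 in 6, Heatr5b and Tmem178 in 4 each and Ehd3 in 2. Heatr5b (adjusted p = 0.0977), Tmem178 (adjusted p = 0.0882) and Ehd3 (adjusted p = 0.132) lost their call without the 3 choroid-rich libraries.

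The windows of Gpatch11 (chr17:78835266-78835565, plus strand), which spans the start of Heatr5b, and of Tmem178 (chr17:80944382-80944681, plus strand) are shown for the head-to-head pair and for the single called gene with an E2F word. The table held windows for 24 of the 37 called genes, and Tmem178 was the 1 gene among these 24 with such a word, GCGGGAAA on the printed strand, the reverse complement of TTTCCCGC, at position -145 from the start. A match describes letters in this window and nothing more.
Gpatch11: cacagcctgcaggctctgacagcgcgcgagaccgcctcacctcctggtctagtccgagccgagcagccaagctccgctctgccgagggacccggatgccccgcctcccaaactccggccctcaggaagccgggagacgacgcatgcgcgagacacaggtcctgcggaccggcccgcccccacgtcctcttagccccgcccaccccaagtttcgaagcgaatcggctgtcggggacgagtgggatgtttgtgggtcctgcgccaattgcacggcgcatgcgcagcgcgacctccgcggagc
Tmem178: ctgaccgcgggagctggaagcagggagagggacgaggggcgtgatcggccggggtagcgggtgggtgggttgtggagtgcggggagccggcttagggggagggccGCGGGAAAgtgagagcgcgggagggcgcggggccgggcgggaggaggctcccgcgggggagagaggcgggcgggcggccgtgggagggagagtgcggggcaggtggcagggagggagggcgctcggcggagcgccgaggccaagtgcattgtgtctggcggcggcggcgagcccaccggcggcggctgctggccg

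Elsewhere in the genome, Fabp5, Sc5d and Astn1 were the protein-coding genes alike in both arms. Fabp5, a fatty acid-binding protein of chromosome 3, had 64.2, 52.5, 50 and 52.3 CPM in PS19_p16KO and 71.8, 57.9, 51.8 and 50.3 CPM in p16KO, against 45.9, 41.2, 40.8 and 37.9 CPM in PS19 and 33.5, 38.9, 39.5 and 40.6 CPM in wildtype. All knockout libraries were above all intact ones, and it rose 1.42-fold (log2 0.50 ± 0.07, adjusted p = 0.00757). Sc5d, the sterol C5-desaturase of the last steps of cholesterol synthesis, ran from 62.8 to 79.1 CPM (median 72.7) in the knockout libraries and from 45.2 to 62.9 CPM (median 60.5) in the intact ones, a rise of 0.31 ± 0.06 (adjusted p = 0.0317). It was alike in both arms, 0.34 ± 0.08 with the transgene and 0.27 ± 0.08 without. Astn1, a neuronal adhesion protein of migration along glia, ran from 266 to 308 CPM (median 298) in the knockout libraries and from 308 to 377 CPM (median 336) in the intact ones, and fell by 0.22 ± 0.04 (adjusted p = 0.0341). It overlaps 5 annotated genes, among them Mir488. Fabp5 was called in all 16 leave-one-out fits, Sc5d in 7 and Astn1 in 4. Both Sc5d (adjusted p = 0.079) and Astn1 (adjusted p = 0.0733) lost their call without the 3 choroid-rich libraries.

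Kcnj11 and Nnt were called with the same sign in both arms but with an overlap due to 1 knockout library. Kcnj11, the Kir6.2 pore of the ATP-sensitive potassium channel, had 38.4, 38.9, 33.7 and 26.2 CPM in PS19_p16KO and 37.2, 33.2, 35.9 and 38.8 CPM in p16KO, against 23.7, 19.2, 29.2 and 24.4 CPM in PS19 and 24.3, 23.2, 26.2 and 25.1 CPM in wildtype. PS19_p16KO library 4 lay inside the intact range, and it rose by 0.53 ± 0.08 (adjusted p = 0.0103), 0.51 ± 0.12 with the transgene and 0.55 ± 0.12 without. It was not called without the 3 libraries highest in choroid plexus RNA (0.52 ± 0.10, adjusted p = 0.0661). Nnt, the mitochondrial transhydrogenase that makes NADPH, had 27.9, 25.4, 34.1 and 20.5 CPM in PS19_p16KO and 29.1, 26.8, 32.2 and 32.3 CPM in p16KO, against 18.9, 24.2, 18.6 and 19.9 CPM in PS19 and 19.9, 20.9, 21.0 and 19.0 CPM in wildtype. Again PS19_p16KO library 4 was the only knockout library inside the intact range. Nnt rose by 0.49 ± 0.08 (adjusted p = 0.0223), 0.40 ± 0.12 with the transgene and 0.58 ± 0.12 without, and was called in 12 of the 16 leave-one-out fits. Pon2, a lactonase with antioxidant activity, ran from 28.5 to 56.9 CPM (median 44.9) in the knockout libraries and from 25.3 to 34.7 CPM (median 28.0) in the intact ones, a rise of 0.59 ± 0.11 (adjusted p = 0.0359). Over all 37 genes, PS19_p16KO library 4 was nearer the median of the intact libraries in 13, against 0 to 6 for each of the other 7 knockout libraries. In 11 genes it was the only knockout library inside the intact range. On chromosome 4 it lay with the other knockout libraries in all called genes but Tusc1, where it was nearer the intact median. Without it 36 genes were called in the average effect, 27 of them among the 37, and 31 were alike in place of 15, 14 of them shared.

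**Figure D3:**
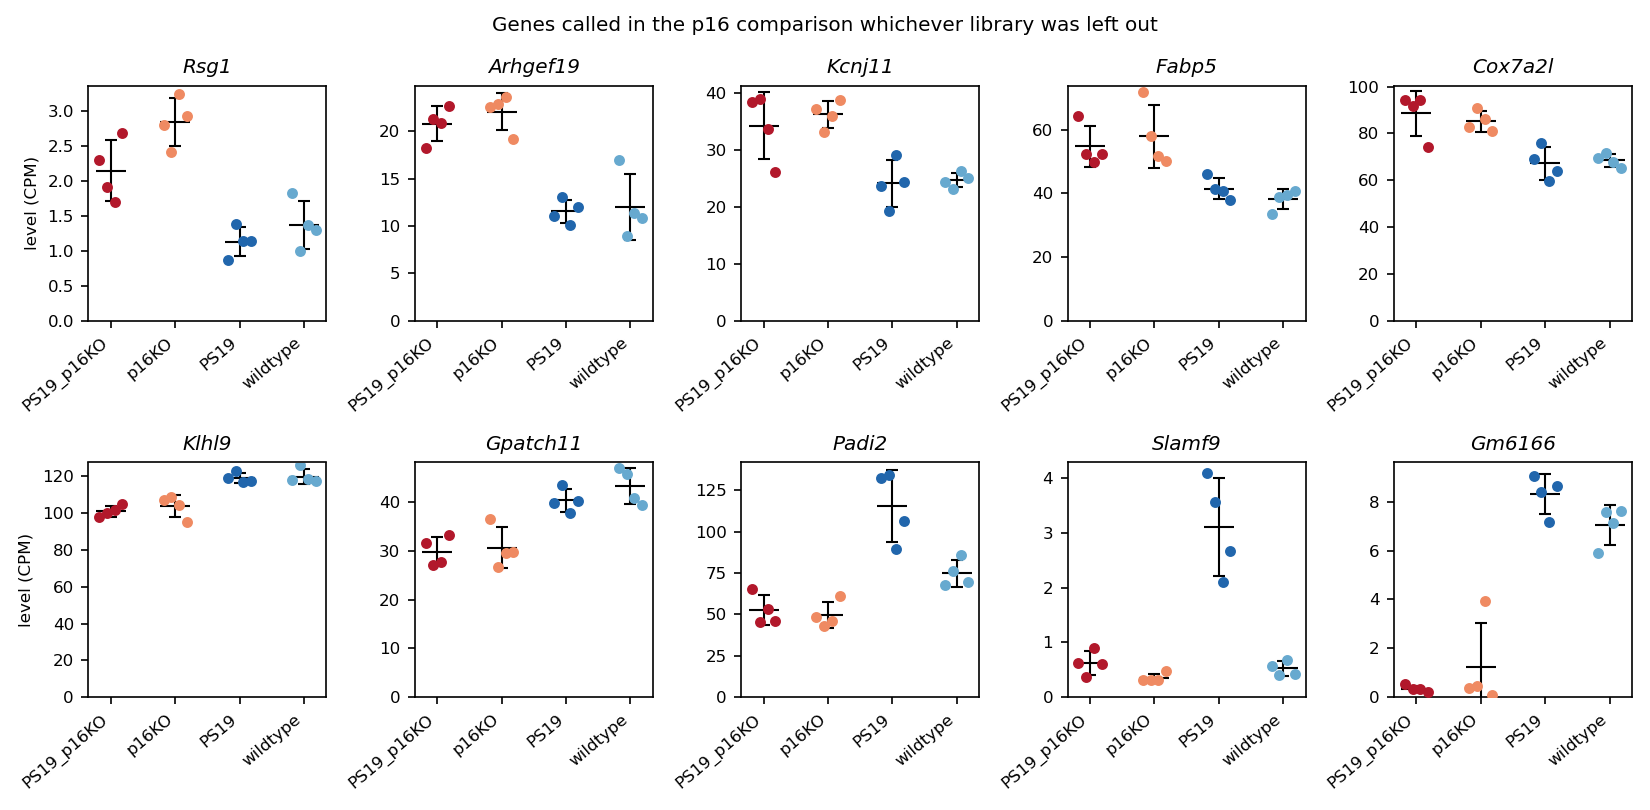
Level in CPM of the 10 genes that were called whichever single library was left out, 1 point per library, with the mean and SD of each group of 4 as bars. The 8 knockout libraries stand to the left in each panel, and Arhgef19, Fabp5, Klhl9, Gpatch11, Padi2 and Gm6166 show no overlap between the p16 genotypes.

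Of the 37 called genes 6 were predicted models or pseudogenes. Where such a model resembles another gene, the division of reads between them is uncertain. Gm6166, a processed pseudogene, had 0.525, 0.319, 0.318 and 0.218 CPM in PS19_p16KO and 0.36, 0.461, 3.95 and 0.104 CPM in p16KO, against 9.05, 8.40, 7.17 and 8.64 CPM in PS19 and 5.89, 7.56, 7.12 and 7.62 CPM in wildtype. It was near 0 in 7 knockout libraries, and p16KO library 3 was between those and the intact ones. The log2 fold change was -3.54 ± 0.49 (adjusted p = 0.0119). Gm6969, another processed pseudogene, which was not called (adjusted p = 0.186), ran at 0.41 to 1.17 CPM in 6 knockout libraries, at 12.9 CPM in PS19_p16KO library 4 and at 13.6 CPM in p16KO library 1, against 23.3 to 30.7 CPM in the 8 intact ones. These 2 libraries lay between the other knockout libraries and the intact ones. Hist1h2al, a histone gene model annotated as a pseudogene, had 1, 16, 1 and 33 counts in PS19_p16KO and 67, 23, 37 and 5 counts in p16KO, against 0, 1, 0 and 0 counts in PS19 and 0, 1, 0 and 0 counts in wildtype. The ratio of all knockout to all intact counts was 90.5 (exact 95% interval 24.7 to 753). That interval pools the libraries and holds counting error only, not the spread from 1 to 67 counts between knockout libraries. Hist1h2al passed the minimum count only through knockout libraries, so its values are a description. Its edgeR adjusted p was 0.0317, with a call in 5 of 16 leave-one-out fits. Gm26825 and Gm15459, which overlap each other on opposite strands, fell by 0.84 ± 0.13 (adjusted p = 0.0223) and by 0.79 ± 0.14 (adjusted p = 0.0449). In both, PS19_p16KO library 4 stood at the intact level, 47.7 CPM for Gm26825 against 22.1 to 27.6 CPM in the other knockout libraries and 44.9 to 54.4 CPM in the intact ones. Neither was called without the 3 choroid-rich libraries (adjusted p = 0.11 for Gm26825 and 0.198 for Gm15459). Gm26825 was called in 8 of the 16 leave-one-out fits and Gm15459 in 2.

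A further set of called genes owed most of its average to the PS19 arm. In 11 of the 37 the smaller arm difference was under 50% of the larger, and in 8 of these the larger was with the transgene. Slamf9, a SLAM family receptor of myeloid cells, had 0.620, 0.372, 0.901 and 0.601 CPM in PS19_p16KO and 0.315, 0.307, 0.308 and 0.469 CPM in p16KO, against 4.09, 3.56, 2.10 and 2.66 CPM in PS19 and 0.573, 0.405, 0.685 and 0.430 CPM in wildtype. Only the PS19 libraries stood apart. The average was -1.44 ± 0.23 (adjusted p = 0.0101), made of -2.30 ± 0.29 with the transgene and -0.57 ± 0.36 without, and the difference between the arms had an unadjusted p of 0.00142 and an adjusted p of 0.223. Pdcd1, the checkpoint receptor PD-1, ran from 0.0532 to 0.191 CPM in PS19_p16KO and from 0 to 0.225 CPM in p16KO, against 1.25 to 3.02 CPM in PS19 and 0.104 to 0.450 CPM in wildtype. Its average was -2.45 ± 0.45 (adjusted p = 0.0294), again with the PS19 libraries alone being high. Myo1f, a myosin of leukocytes, averaged 3.48 ± 0.890 CPM in PS19_p16KO and 3.12 ± 0.355 CPM in p16KO, against 9.48 ± 2.58 CPM in PS19 and 3.45 ± 0.474 CPM in wildtype (SD, n = 4 each). Its log2 fold change was -1.45 ± 0.21 with the transgene and -0.14 ± 0.22 without (unadjusted p of the difference 0.000316, adjusted p = 0.131). Slc15a3, a peptide and histidine transporter of lysosomes, and Cybrd1, a ferric reductase, likewise had their highest mean in PS19. Pirb, an inhibitory receptor of myeloid cells whose smaller arm exceeded 50% of the larger, fell by 1.53 ± 0.30 (adjusted p = 0.0375), with -1.92 ± 0.42 in the PS19 arm and -1.15 ± 0.44 without the transgene. In the other 3 of the 11, Frmd4b, Pon2 and Paox, the larger difference was without the transgene, and Frmd4b, a scaffold protein with a FERM domain, was at 0.16 ± 0.08 in the PS19 arm and 0.42 ± 0.08 without the transgene. Without the 3 libraries highest in choroid plexus RNA, Slc15a3 (adjusted p = 0.154), Cybrd1 (0.0661), Pirb (0.0823) and Frmd4b (0.079) were not called. Slamf9 was called in all 16 leave-one-out fits, Pdcd1 in 9 and Myo1f in 6. Frmd4b was called in 4, Pon2 in 3, Cybrd1 in 2 and Pirb and Slc15a3 in 1 each. Of the 37 called genes 9 had an unadjusted p under 0.05 for the difference between the arms and 0 an adjusted p under 0.05, while over all genes 890 (5.44%) had such an unadjusted p and 1, C3ar1 (0.00611%), such an adjusted p.

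General microglia and macrophage genes were also highest in the PS19 group. The summed level of 16 general microglia and macrophage genes was 235 to 281 CPM in PS19_p16KO and 220 to 261 CPM in p16KO, against 316 to 833 CPM in PS19 and 201 to 220 CPM in wildtype. Of the 16 genes 0 were called in the average effect, against 0.226% of all genes, with a median of -0.45. The medians of the arms had opposite signs, -1.06 with the transgene and 0.19 without. In the PS19 arm 10 of the 16 were called lower, against 127 of all genes (0.776%), and without the transgene 0 of 16 were called. By sign alone, 0 of the 16 were positive in the PS19 arm and 15 without the transgene. The summed level of 26 disease-associated microglia genes reached its highest values in PS19, but the groups overlapped. It was 4893 to 5806 CPM in PS19_p16KO and 4965 to 5296 CPM in p16KO. In PS19 it was 5283 to 8302 CPM and in wildtype 4572 to 5291 CPM. Of these 26 genes 0 were called in the average effect, with a median of -0.35. In the PS19 arm 10 were called lower, and without the transgene 0 were called. By sign alone, 0 of the 26 were positive in the PS19 arm and 21 without the transgene. Clec7a, a receptor of fungal glucans that marks activated microglia, was at -1.52 ± 0.31 on average (adjusted p = 0.0681), -3.46 with the transgene and 0.42 without. Whether the share of microglia bears on Slamf9, Pirb, Myo1f and Slc15a3 was not tested. In bulk tissue fewer cells of a type and less RNA per cell cannot be told apart.

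**Figure D4:**
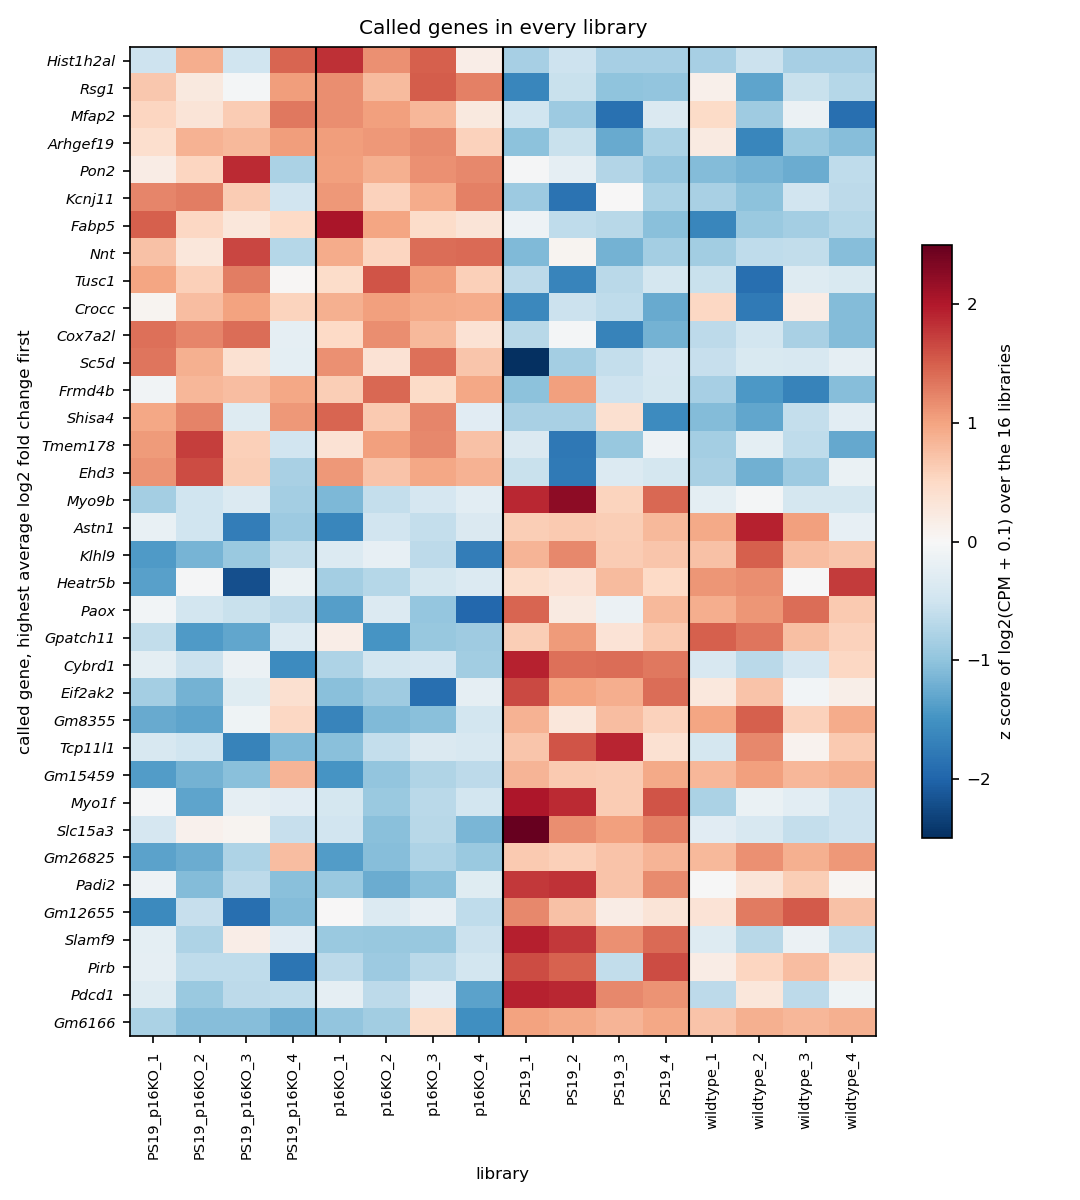
Of the called genes 36 (one line each, highest average log2 fold change first) in the 16 libraries, coloured by the z score of log2(CPM + 0.1) over the libraries. The lower lines with Slamf9, Pdcd1, Slc15a3 and Myo1f are high in the 4 PS19 libraries only, whereas Klhl9, Gpatch11, Arhgef19 and Fabp5 divide the 8 knockout from the 8 intact libraries.

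The remaining called genes had knockout libraries inside the intact range. Tcp11l1 fell by 0.67 ± 0.12 (adjusted p = 0.0352) and overlaps Cstf3. Paox, a polyamine oxidase, fell by 0.39 ± 0.08 (adjusted p = 0.0462) and overlaps Echs1, and Myo9b, an unconventional myosin, fell by 0.21 ± 0.04 (adjusted p = 0.0487). For Myo9b every wildtype library was nearer the knockout median than the intact one, and no PS19 library was. Shisa4 rose by 0.28 ± 0.06 (adjusted p = 0.0487), and Gm8355, a processed pseudogene, fell by 0.60 ± 0.11 (adjusted p = 0.0317). Each of these 5 was called in at most 5 of the 16 leave-one-out fits. Paox (adjusted p = 0.149) and Myo9b (adjusted p = 0.0942) lost their call without the 3 choroid-rich libraries. Nonoverlap in both arms without a call was found for 9 genes, Mcfd2, Cited2, Galnt18, Gm6969, Hmgcll1, Peg10, Rtca, Tdrd5 and Aplp1, named here after their values were seen. Peg10, an imprinted gene derived from a retrotransposon, was the largest of the protein-coding ones. It ran from 13.9 to 22.7 CPM (median 19.2) in the knockout libraries and from 21.7 to 57.3 CPM (median 27.7) in the intact ones, at -0.85 ± 0.21 (adjusted p = 0.201).

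Senescence genes, the group most tied to p16, gave no call on average, where 0.226% of all genes were called. The list of 39 senescence and secretory genes had 29 tested members and 0 calls and its median was -0.10, with -0.23 in the PS19 arm and 0.04 without the transgene. In the average effect 14 of the 29 had an unadjusted edgeR p under 0.05, against 7.96% of all genes, and 10 of the 29 were positive. In the PS19 arm 5 of the 29 were called lower, against 0.776% of all genes. By sign alone, 11 of the 29 were positive in the PS19 arm and 16 without the transgene. Ccl3, a chemokine, ran from 0.104 to 0.546 CPM (median 0.249) in the knockout libraries and from 0.322 to 1.67 CPM (median 0.641) in the intact ones, at -1.39 ± 0.32 (adjusted p = 0.0839). Hgf, hepatocyte growth factor, was at -0.38 ± 0.11 (adjusted p = 0.201). Il6, Tnf and 8 further members were too low to be tested.

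Cholesterol synthesis genes had positive averages throughout. All 22 were tested and all 22 had a positive average, with a median of 0.20, but Sc5d was the single call. The median was 0.34 with 22 positive signs in the PS19 arm, and 0.04 with 15 positive signs without the transgene, a difference that was not tested for the list. Fdps, which makes farnesyl diphosphate, was at 0.25 ± 0.06 (adjusted p = 0.0952), Hsd17b7 at 0.24 ± 0.06 (adjusted p = 0.173) and Idi1, the isomerase of the pathway, at 0.30 ± 0.08 (adjusted p = 0.18). In the PS19 arm alone 3 members were called higher, Fdps, Insig1 and Msmo1, against 0.0489% of all genes. Among 28 genes of mitochondrial redox balance and NADPH, Nnt was the single call, and the median was 0.03.

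The lists of other cell types gave no call in the average effect, where 0.226% of all genes were called. The summed level of 16 reactive astrocyte genes was, like that of general microglia genes, highest in PS19, at 1174 to 3227 CPM. It was 803 to 911 CPM in PS19_p16KO, 735 to 854 CPM in p16KO and 682 to 780 CPM in wildtype. The median of the 13 tested was -0.46, with -0.92 in the PS19 arm (4 called lower, against 0.776% of all genes) and 0.16 without the transgene. All 16 myelin and oligodendrocyte genes were positive, with a median of 0.14, 0.30 without the transgene and 0.01 with it. Opalin, a myelin membrane protein, ran from 16.5 to 26 CPM (median 17.4) in the knockout libraries and from 11.8 to 18.8 CPM (median 14.8) in the intact ones, at 0.35 ± 0.08 (adjusted p = 0.0681). Padi2, which oligodendrocytes express, fell while these genes had positive signs. All 12 dentate granule cell genes were positive as well, with a median of 0.15 and a summed level of 930 to 1084 CPM in PS19_p16KO and 938 to 1064 CPM in p16KO, against 817 to 946 CPM in PS19 and 915 to 937 CPM in wildtype. Of 22 endothelial identity and barrier genes 20 were positive, with a median of 0.07. One of them, Slco1c1, a thyroid hormone transporter that the choroid plexus also expresses, had 103 CPM in PS19_p16KO library 3 and 82.8 CPM in p16KO library 4, against 37.3 to 41.1 CPM in the other knockout libraries. Its log2 fold change was 0.49 ± 0.24 with all libraries and 0.12 ± 0.05 without the 3 highest in choroid plexus RNA (adjusted p = 0.667 and 0.622). The 15 choroid plexus genes had 0 calls, but all 15 were positive, with a median of 2.43, 3.51 with the transgene and 1.41 without. The 2 libraries highest in them were both from the knockout. Without the 3 libraries highest in choroid plexus RNA 33 genes were called in the average effect, 20 of them among the 37, and 20 genes were alike, 10 of them among the 15.

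Genes chosen in one arm were then read in the other, which shares no library with it. In the PS19 arm 135 genes were called (0.825%), 8 higher (0.0489%) and 127 lower (0.776%), with 1406 at an unadjusted p under 0.05 (8.59%), and in the arm without the transgene 0 were called (edgeR), with 653 at an unadjusted p under 0.05 (3.99%), while DESeq2 called 18 there and limma-voom 11. When only the libraries of an arm were fitted, 8 genes were called in the PS19 arm (2 higher and 6 lower) and 9 without the transgene (7 higher and 2 lower). Leaving out 1 library changed the 135 calls by over 1.5 times in 6 cases, to 49 without PS19_p16KO library 1, 36 without library 2 and 46 without library 4 of that group, and to 46 without PS19 library 1, 29 without library 2 and 347 without library 3. Among the 135, 55 (40.7%) had the same sign without the transgene, and the median there, taken in the direction of the PS19 arm, was -0.05. All 8 that rose had the same sign without the transgene, with a median of 0.09, and Arhgef19 and Cox7a2l among them were also called in the average effect. Of 25 genes with an unadjusted p under 0.001 without the transgene, 22 (88.0%) had the same sign in the PS19 arm, with a median of 0.39 in that direction. Of these 25, 16 also had an unadjusted p under 0.05 there with the same sign and 0 with the opposite one. Over all genes tested 54.9% had the same sign, and the log2 fold changes of the arms correlated over genes with a Pearson coefficient of 0.323 and a Spearman coefficient of 0.134, where genes are not independent replicates. Of the 37 called genes 17 were also called in the PS19 arm.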

How the data were processed

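Total RNA of whole hippocampus was sequenced in bulk by a commercial provider, per the labels' protocols. The authors deposited raw counts in 1 table, which held 49671 genes and 92 ERCC spike-ins. The submitters' processing notes name GRCm38, DESeq2, featureCounts, Subread 1.5.2, STAR 2.5.2b and Trimmomatic 0.36. The role of each tool, the annotation and any use of strand in counting were not given in the sources used here. ERCC rows, 0.574% to 1.06% of the counts of a library, entered neither library sizes nor tests. GENCODE M21 gave symbols for 49412 of the genes, and coordinates are 1-based.

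Counts were tested with edgeR 4.0.16 in R 4.3.3: filterByExpr with a minimum count of 10, TMM, a robust quasi-likelihood fit with 1 mean per group over all 16 libraries, and Benjamini-Hochberg adjustment over 16372 genes at 0.05. The average p16 effect and the difference in each arm were contrasts of this fit, so the transgene is held by the group means. Errors of log2 fold changes are standard errors from the F statistic. Cdkn2a, under the filter, was tested by exact permutation within arms. A group of called genes by position has at least 3 genes with starts at most 5 Mb apart, where start is the lower annotated coordinate, whatever the strand. Counts were simulated for the average effect over 16372 genes, with 50 genes changed at each fold. The changed genes had a mean above 1 CPM and the same change in both arms. Of them 46% were recovered at 1.2-fold, 88% at 1.5-fold, 94% at 2-fold and 98% at 4-fold. Recovery of lower genes, or of a change in 1 arm only, was not simulated. Replicates differed by more than sampling noise (chi-square per degree of freedom 4.82 to 26.3). The knockout minus intact ERCC share was 0.00558 percentage points (exact permutation p = 0.947).

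The comparison, the lists and the rules were chosen with earlier results of these data known. Named genes are Cdkn2a, Cdkn2b, Mtap, Nnt, Mapt and Prnp, the alike genes with a mean log2 CPM above 0, the called genes of each positional group, up to 4 members per list described and up to 10 called genes with the smallest interaction p. Called genes outside these, the 9 uncalled genes without overlap, the PS19-arm calls and C3ar1 were named after their values were seen. Some items are not reported here. Mapt was at 0.12 ± 0.04 (adjusted p = 0.445). Alternatives were RLE scaling, other filters, no robust dispersion, a minimum fold of 1.2, a replicate block, terms from the library names, a choroid plexus covariate, 1 surrogate variable (sva 3.50.0), an additive fit, DESeq2 1.42.0, limma-voom (limma 3.58.1), single arms and leaving out libraries.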

Additional observations from a re-analysis of the deposited data

Results flagged for a closer look

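Within groups of 4 libraries, a library was singled out when its gap to the nearest other exceeded 0.829 of the range of the group, which chance gives in about 1 of 20 groups. This held in 34 of 376 groups examined (9.04%), 8 times for PS19_p16KO library 3, 4 times for p16KO library 4 and 3 times each for PS19_p16KO library 4, p16KO library 1, PS19 libraries 1 and 2 and wildtype library 2. Choroid plexus RNA set apart PS19_p16KO library 3 (summed level 9319 CPM), p16KO library 4 (5962 CPM) and wildtype library 1 (1714 CPM). In PS19_p16KO library 3, Cdkn1c stood at 38.3 CPM, Slco1c1 at 103 CPM, Mtap at 9.96 CPM, Tgfb1 at 6.63 CPM, Mcfd2 at 80.8 CPM and Rtca at 40.2 CPM, above the others of its group, and Idi1 at 17.9 CPM below them. In p16KO library 4, Slco1c1 (82.8 CPM), Mcfd2 (76.3 CPM) and Slamf9 (0.469 CPM) were high. In PS19_p16KO library 4, Cox7a2l was low at 74.2 CPM, and Gm15459 (75.3 CPM) and Gm6969 (12.9 CPM) were high.

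In the other p16KO libraries, Gm6969 (13.6 CPM), Clec7a (1.75 CPM) and Tyrobp (7.51 CPM) were high in library 1, and Gm6166 (3.95 CPM) in library 3. Among PS19 libraries, Ccnd1 (42.7 CPM), Cybrd1 (10.6 CPM) and Slc15a3 (9.69 CPM) were high in library 1. In PS19 library 2, Ehd3 (161 CPM) and Aplp1 (1410 CPM) were low and Hist1h2al had its single count (0.0475 CPM). In PS19 library 3, Pirb was low at 0.324 CPM. Among wildtype libraries, Fa2h was high in library 1 (32.4 CPM), Klhl9 was high in library 2 (126 CPM), where Hist1h2al had its single count (0.0450 CPM) and Aplp1 was low (1450 CPM). Hgf (3.48 CPM) and C3ar1 (0.896 CPM) were low in wildtype library 3, and Ccl3 (0.322 CPM) in library 4.

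C3ar1, the receptor of complement fragment C3a, was the 1 gene whose p16 difference changed with the transgene by a test of that change. It averaged 2.20 ± 0.482 CPM in PS19_p16KO and 1.96 ± 0.218 CPM in p16KO, against 7.30 ± 2.10 CPM in PS19 and 1.14 ± 0.161 CPM in wildtype (SD, n = 4 each). Its difference was -1.73 with the transgene and 0.78 without, a change of -2.52 (95% interval -3.18 to -1.85, edgeR adjusted p = 0.00248).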

How the results depend on the processing

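None of the 89 genes followed through the alternatives changed sign in any of them, but calls were often lost. Many of these genes were chosen by their values in the same libraries, which favours a stable sign, so it is a description only. Of the 37 called genes 10 stayed called in all 16 leave-one-out fits. Leaving out 1 library at a time gave 10 to 119 calls in the average effect, 6 to 31 alike genes, 6 to 14 calls inside the 3 positional groups, 29 to 347 calls in the PS19 arm, 0 to 8 without the transgene and 1 to 160 for the interaction. The average effect gave over 1.5 times more calls, 119 (27 higher and 92 lower), without PS19 library 3. It gave over 1.5 times fewer without PS19_p16KO library 1 (19) or 2 (15), p16KO library 1 (14), 2 (14) or 3 (10), PS19 library 1 (12), 2 (13) or 4 (21), or wildtype library 2 (12), 3 (19) or 4 (14). The difference of Cdkn2a ranged from -0.170 to -0.107 CPM, with exact permutation p-values from 0.000408 to 0.0167. A minimum fold of 1.2 left 4 average calls, 3 alike genes, 2 in the positional groups and 37 in the PS19 arm. The replicate numbers are not stated to pair the samples. Correlations of same-numbered samples ran from -0.173 to 0.119 over 8 pairs and 1 was over 0.1, which cannot decide whether they were paired. With the replicate number as a block there were 23 average calls, 9 alike genes, 8 in the positional groups and 5 for the interaction. The suffix digit of the library name as a batch term gave 20, 9 and 8 of these, 87 calls in the PS19 arm and 13 for the interaction. The leading number of the name as a covariate gave 2 calls without the transgene and 57 for the interaction, the choroid plexus covariate 4 and 5, and 1 surrogate variable 4 and 7. Without the 3 libraries highest in choroid plexus RNA the PS19 arm had 62 calls and the arm without the transgene 7. DESeq2 called 107 genes in the average effect (36 of the 37 among them), 278 in the PS19 arm, 18 without the transgene and 88 for the interaction. Limma-voom called 77, 11 and 0 in the last 3. No filter gave 4 calls without the transgene and 20 for the interaction, and split the 49 average calls into 26 higher and 23 lower; RLE scaling gave 6 interaction calls and no robust dispersion 2. Fits of single arms called 8 genes with and 9 without the transgene. Asking for the same sign in both arms only, without the nonoverlap criteria, made all 37 genes alike. For the other results of each setting, counts stayed within 1.5 times. The cause of these shifts was not tested. Low counts limit Cdkn2a, Pdcd1, Hist1h2al, Pirb and Gm12655.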
